A study of Mus musculus with 20 samples.

Results

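The Wnt ligands of skin are described here: *Wnt2*, *Wnt3*, *Wnt4*, *Wnt5a*, *Wnt5b*, *Wnt6*, *Wnt7b*, *Wnt10a*, *Wnt10b* and *Wnt16*, chosen by name as Wnt genes known from skin. All 10 were on the array, among 18193 genes with a probeset annotated to 1 gene, and 17 of the 45037 probesets tested belong to them. Where a gene had several probesets, the brightest over the 20 arrays was used, without a filter on low values, and the other probesets of *Wnt4*, *Wnt5a*, *Wnt5b*, *Wnt6* and *Wnt7b* served as a check. The arrays were Affymetrix MOE430 2.0, and the deposited values are log2 intensities made by RMA (background correction, normalization between arrays and summary of the probes of a probeset), so that a difference of 1 stands for a 2-fold change in signal. The samples were 5 normal skin samples of wild type mice aged 2 months, 7 tumors of Trp53ΔEC mice (K14Cre; p53loxP/loxP) and 8 tumors of RbΔEC; Trp53ΔEC mice, which also lack Rb1 in the same cells, all of the FVB strain. Cre was driven by the keratin 14 promoter in both tumor models, so the deletion lies in stratified epithelium and not in the stroma of the tumor. By histology, 6 tumors were poorly differentiated carcinomas (PD), 4 were mixed, 3 were undifferentiated and 2 were spindle cell carcinomas, and the last 5 form the group undifferentiated/spindle (UDS). PD tumors made up 2 of the Trp53ΔEC and 4 of the RbΔEC; Trp53ΔEC tumors, mixed tumors 3 and 1, and UDS tumors 2 and 3. Ages of the tumor mice are not in the labels, and age cannot be told apart from tumor growth.

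Wnt proteins are secreted, lipid-modified ligands that act over short distances. Porcupine attaches the lipid and Wntless carries the ligand to the cell surface, where it binds Frizzled receptors together with Lrp5 or Lrp6 and stabilizes β-catenin, or binds Ror2, Ryk or Ptk7 and acts on cell polarity and movement. In skin, Wnt signals are needed for the first steps of hair follicle formation, for the hair cycle and for the renewal of the basal epidermis, and keratinocytes and dermal cells both make them.

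Array medians lay between 5.58 and 5.63 in skin and between 5.65 and 5.75 in tumors. The skin samples carried more than epidermis: 12 skeletal muscle markers averaged 13.0 to 13.7 per array in skin against 4.64 to 8.79 in tumors, and 12 of 12 were lower in tumors. Keratinocyte markers (*Krt5*, *Krt14*, *Cdh1* and others) averaged 11.5 to 11.8 in skin, 11.5 to 12.1 in PD, 6.51 to 10.98 in mixed and 5.79 to 8.16 in UDS tumors, so the epithelial label was borne out in PD tumors and much less in UDS tumors. The difference of the 3′ and 5′ control probesets of *Actb*, a sign of RNA quality, ran from 0.50 to 1.19 in skin, 0.42 to 0.82 in PD, 0.38 to 0.66 in mixed and 0.24 to 0.38 in UDS tumors, and thus moved with histology. Its part in the results below was not tested. In bulk tissue, fewer cells of a type and less RNA per cell cannot be told apart.

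*Wnt4* and *Wnt10a* were the ligands that separated UDS from PD tumors. In the comparison of UDS with PD tumors both were lower in UDS, *Wnt4* with a difference of -3.55 and *Wnt10a* of -2.58 on the log2 scale, and no UDS tumor reached the lowest PD tumor for either gene. Both were also higher in PD tumors than in normal skin. *Wnt6* was lower in UDS as well (-0.40), with overlapping groups. With limma and Benjamini-Hochberg adjustment over all genes, called at an adjusted p under 0.05, 3 of the 10 ligands were thus lower in UDS, against 9.90% of all genes tested, and 0 were higher, against 12.7%. For 2 of the 10 the UDS values lay wholly below the PD values, against 6.89% of all genes. The median difference of the 10 ligands was -0.08, beside 0.01 over all genes.

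*Wnt4* is a ligand of many epithelia, required for kidney tubule and female reproductive tract formation. In skin its log2 level was 8.63, 8.70, 8.01, 8.55 and 8.48. In PD tumors it ran from 8.84 to 10.06 with a median of 9.95. The 4 mixed tumors had 6.73, 6.93, 8.23 and 6.47, and the UDS tumors had 6.34 and 6.26 (spindle) and 6.23, 6.28 and 5.495 (undifferentiated). All PD tumors were above all skin samples, all UDS tumors were below every other sample, and among the mixed tumors the Trp53ΔEC tumor with 8.23 reached the range of skin. PD against UDS differed by -3.55 ± 0.26 (SE; UDS minus PD, n = 5 and 6, limma adjusted p = 3.4e-06), place 113 of 18193 genes by p. The order PD, skin, mixed and UDS held for every pair of neighbours, with differences of 1.19 ± 0.29 for PD minus skin (limma adjusted p = 0.00314), -1.39 ± 0.32 for mixed minus skin (adjusted p = 0.00189) and 0.97 ± 0.32 for mixed minus UDS (adjusted p = 0.0413). The last of these was not called in 8 of the 20 fits that left out 1 array, nor with the median of both probesets (adjusted p = 0.0984). The second *Wnt4* probeset gave -2.22 ± 0.30 for UDS minus PD (limma adjusted p over all probesets = 0.00044).

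The 250 bases before the start of *Wnt4* are shown because no other ligand moved as far with histology, and those of *Wnt2* because its p was the smallest among the brightest ligand probesets between tumors and skin. They are RefSeq sequence of GRCm38.p6 and end just before the annotated start. Capitals mark matches, on either strand, to the E2-box CAGGTG and the GC box GGGCGG, and the TCF/LEF core ATCAAAG was searched as well.
Wnt4, chr4:137277385-137277634, plus strand: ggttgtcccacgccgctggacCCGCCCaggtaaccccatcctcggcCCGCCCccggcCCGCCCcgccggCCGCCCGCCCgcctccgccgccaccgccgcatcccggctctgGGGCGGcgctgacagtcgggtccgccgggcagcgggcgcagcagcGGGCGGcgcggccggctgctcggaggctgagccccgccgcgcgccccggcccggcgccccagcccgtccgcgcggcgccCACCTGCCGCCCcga
Wnt2, chr6:18030446-18030695, minus strand: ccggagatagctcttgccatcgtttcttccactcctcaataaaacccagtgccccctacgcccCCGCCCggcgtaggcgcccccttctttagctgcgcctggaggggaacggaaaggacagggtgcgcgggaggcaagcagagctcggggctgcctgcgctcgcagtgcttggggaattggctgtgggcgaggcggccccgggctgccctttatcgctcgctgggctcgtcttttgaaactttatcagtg
The *Wnt4* window held 1 E2-box, the motif read by Snail and Zeb repressors, at position -15 from the start, and 8 GC boxes, of which a pair overlap by 2 bases, in sequence of 85.2% G and C. The *Wnt2* window held 1 GC box and was 63.6% G and C. Neither held the TCF/LEF core. Over 32851 promoter windows of this length, 17.2% held the E2-box, 32.7% the GC box and 3.21% the TCF/LEF core. Windows were at hand for 7 of the 10 ligands, and the E2-box was also in those of *Wnt5b* and *Wnt10b*, which were not called by grade. These matches describe letters and say nothing about binding.

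*Wnt10a*, whose loss causes missing teeth and sparse hair in ectodermal dysplasia, had log2 levels of 8.05, 7.64, 7.41, 7.44 and 7.42 in skin. PD tumors ran from 8.41 to 10.19 with a median of 9.24. The mixed tumors had 5.53, 7.51, 5.60 and 5.06, and the UDS tumors had 7.47 and 6.95 (spindle) and 5.65, 6.67 and 6.98 (undifferentiated). Every PD tumor was above every other sample, while skin, mixed and UDS overlapped. The difference was -2.58 ± 0.36 for UDS minus PD (SE, limma adjusted p = 0.000412), 1.73 ± 0.40 for PD minus skin (adjusted p = 0.002) and -1.67 ± 0.44 for mixed minus skin (adjusted p = 0.00495). Its order was PD, skin, UDS and mixed: neither UDS minus skin (-0.85, 95% interval -1.72 to 0.02, adjusted p = 0.109) nor mixed minus UDS (-0.82, interval -1.74 to 0.11, adjusted p = 0.219) was larger than the spread allowed to call. In the fit without the other genotype, *Wnt10a* differed by -2.70 between 3 UDS and 4 PD tumors labelled RbΔEC; Trp53ΔEC (limma adjusted p = 0.00195) and by -2.28 between 2 and 2 Trp53ΔEC tumors (adjusted p = 0.211). *Wnt4* was called in both, at -3.51 and -3.67 (adjusted p = 0.00128 and 0.0245).

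*Wnt6* lies next to *Wnt10a*, with no protein-coding gene between them in RefSeq, and takes part in kidney and tooth development. It had 5.99, 5.91, 5.87, 5.71 and 6.02 in skin and 5.83 to 6.18 (median 6.03) in PD tumors. In UDS it had 5.34 and 5.61 in the spindle tumors and 5.503, 5.85 and 5.77 in the undifferentiated tumors, so that only 1 UDS tumor overlapped the PD range. The difference of -0.40 ± 0.11 (SE, limma adjusted p = 0.0238) was not called without either Trp53ΔEC UDS tumor (adjusted p = 0.0573 and 0.0564), with the median of both probesets (0.0979), within a genotype (0.217 and 0.222) or in the fit over all 20 arrays (0.241). Among the mixed tumors 2 Trp53ΔEC samples had 6.98 and 7.29, the highest of all, and the others 5.795 and 5.54. The same 2 samples had *Wnt10a* at 5.53 and 7.51, the lowest and the highest of the 3 mixed Trp53ΔEC tumors.

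**Figure D1:**
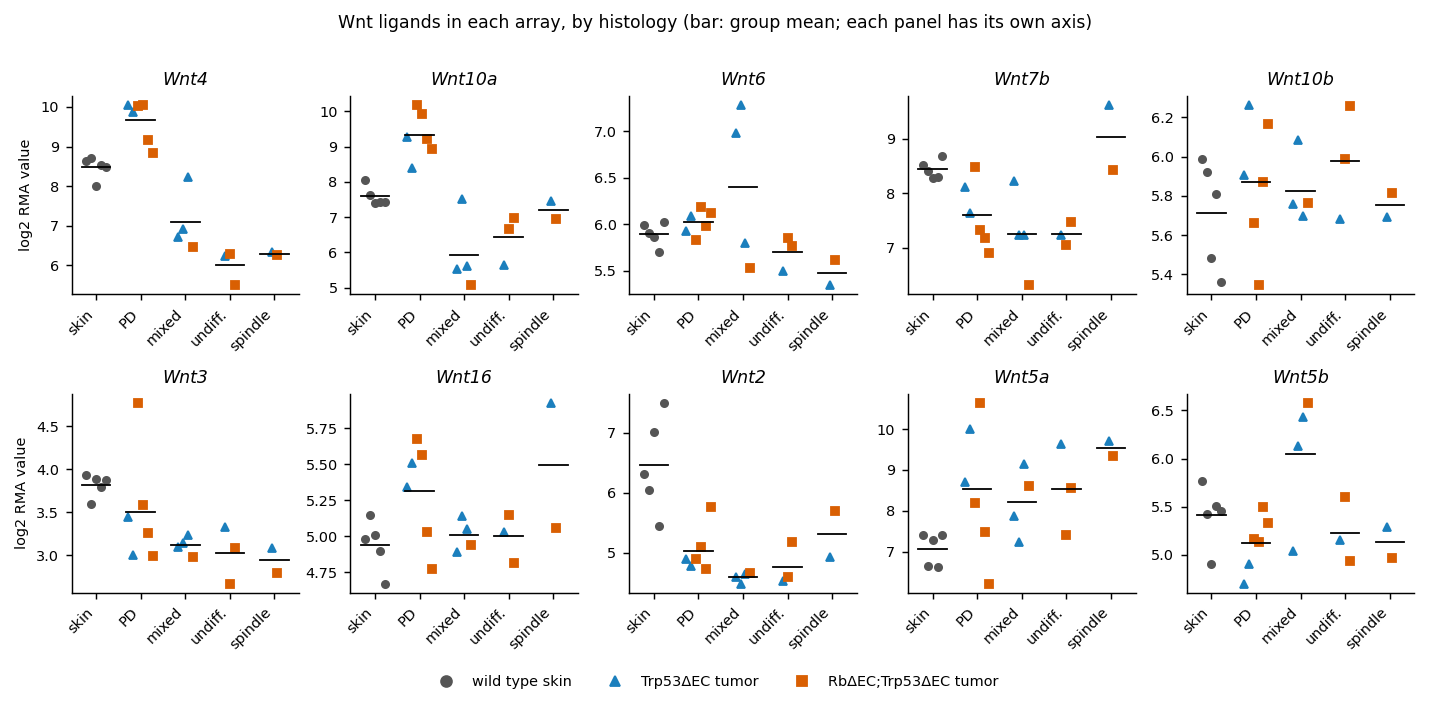
Log2 RMA value of the 10 Wnt ligands (1 panel each, with its own axis) in each of the 20 arrays, by histology (PD, poorly differentiated; undiff., undifferentiated), with a bar at the mean and the symbol giving the genotype. *Wnt4* and *Wnt10a* stand highest in the 6 PD tumors, *Wnt2* in the 5 skin samples, and values of both genotypes overlap in every panel.

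Keratinocyte markers moved with *Wnt4* and *Wnt10a* by grade: 12 of 12 were lower in UDS than in PD tumors, with a median difference of -5.59, as were 7 of 8 suprabasal markers, while 7 of 9 macrophage markers and 5 of 8 endothelial markers were higher. The part of cell composition in the grade difference was not tested. Between PD tumors and skin the keratinocyte means overlapped, with 1 of 12 markers higher and 1 lower in PD, and *Wnt4* and *Wnt10a* were higher in PD. The 3 mixed Trp53ΔEC tumors had keratinocyte means of 10.98, 10.3 and 9.58, above the UDS range. In the same order they had *Wnt4* at 6.73, 6.93 and 8.23, which rose as the means fell, and *Wnt10a* at 5.53, 7.51 and 5.60. In mixed against UDS tumors 7 of 12 keratinocyte markers and *Wnt4* were higher, and *Wnt10a* was not called. Suprabasal markers, with means of 5.33 to 8.26 in mixed tumors, were lower there than in PD (8 of 8) and skin (8 of 8), and 0 of 8 were called against UDS. Hair matrix and shaft markers, which could carry hair follicle ligands, averaged 5.36 to 5.78 in skin and 5.37 to 7.38 in PD tumors, with 2 of 13 higher and 0 lower in PD. The highest mean of all arrays, 7.55, was in the RbΔEC; Trp53ΔEC spindle tumor, with *Wnt4* at 6.26 and *Wnt10a* at 6.95. The other UDS and the mixed tumors ran from 4.62 to 5.34.

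**Figure D2:**
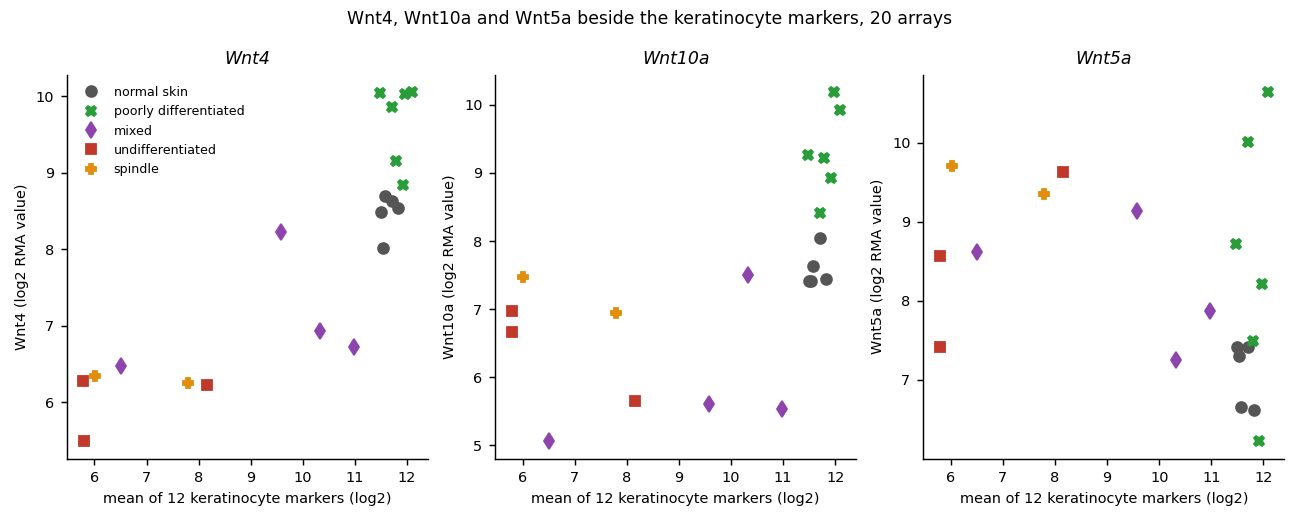
Log2 RMA value of *Wnt4*, *Wnt10a* and *Wnt5a* (vertical axes) against the mean log2 value of 12 keratinocyte markers (horizontal axes) in the 20 arrays, with color and symbol for histology. PD tumors stand above skin at like marker means for *Wnt4* and *Wnt10a*, the mixed tumors spread from 6.51 to 10.98 on the marker axis, with *Wnt10a* from 5.06 to 7.51, and *Wnt5a* spreads widely at both ends.

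Among the brightest probesets, *Wnt2* had the smallest p of the ligands between tumors and skin. Among the 15 tumors against 5 skin samples, *Wnt2* and *Wnt3* were lower and *Wnt5a* was higher, so that 1 of 10 ligands was higher in tumors, against 17.7% of all genes, and 2 were lower, against 18.0%. The other 7 were not called, and *Wnt4* and *Wnt10a*, which differ between tumor classes in opposite directions from skin, averaged to -0.68 ± 0.74 and -0.04 ± 0.74. On the brightest probesets the values of tumors and skin overlapped for all 10.

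*Wnt2*, a β-catenin ligand needed in lung and placenta development and made mostly by mesenchymal cells, had 6.31, 6.05, 7.01, 5.45 and 7.50 in skin and 4.48 to 5.76 (median 4.78) in tumors. Only the lowest skin sample fell within the tumor range, where the PD tumor at 5.76 and the spindle tumor at 5.69 stood above it. The difference was -1.57 ± 0.26 (SE, n = 15 and 5, limma adjusted p = 7.16e-05). By class it was -1.44 ± 0.30 in PD, -1.87 ± 0.33 in mixed and -1.48 ± 0.31 in UDS tumors against the same skin samples (adjusted p = 0.000782, 0.00016 and 0.000765). UDS and PD differed by -0.04 (95% interval -0.56 to 0.49). Stromal markers were also lower in tumors than in skin: 6 of 10 measured fibroblast markers were lower and 0 higher. Their list means were 12.3 to 12.4 in skin and 8.37 to 11.999 in tumors. Lower as well were 5 of 5 adipocyte and 12 of 12 muscle markers. Among the tumors no such parallel was plain. The PD tumor with *Wnt2* at 5.76 had the lowest fibroblast mean, 8.37, and the spindle tumor with 5.69 had 11.5. The part of these markers in the *Wnt2* difference was not tested. Against skin, 7 of 10 fibroblast markers were lower in PD and 2 in UDS tumors, while 12 of 12 muscle and 5 of 5 adipocyte markers were lower in both.

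*Wnt5a* signals mostly without β-catenin, through Ror2. It had 7.42, 6.65, 7.30, 6.62 and 7.42 in skin and ran from 6.22 to 10.64 (median 8.61) in tumors, a range of 4.41. The lowest and the highest value both came from PD tumors labelled RbΔEC; Trp53ΔEC. The difference between tumors and skin was 1.51 ± 0.53 (SE, limma adjusted p = 0.0318), and it was not called without skin sample 2, 3 or 4 (adjusted p = 0.081, 0.0531 and 0.0825). UDS tumors, with 9.71 and 9.35 (spindle) and 9.62, 7.41 and 8.56 (undifferentiated), were higher than skin by 1.85 ± 0.66 (adjusted p = 0.0294), a call lost without either of 2 skin samples or any of 3 tumors. PD and mixed tumors were 1.46 ± 0.63 and 1.14 ± 0.69 above skin (adjusted p = 0.0737 and 0.2). The 4 *Wnt5a* probesets gave 1.03 to 1.55 for tumors minus skin, and 3 of them were called. On the dimmest, with a mean at percentile 30.4 of all probesets, every tumor (lowest 4.315) was above every skin sample (highest 4.03). It was called higher than skin in PD, mixed and UDS tumors (limma adjusted p over probesets = 0.00138, 0.00969 and 0.0126). The other *Wnt5a* probesets were not called in PD or mixed tumors against skin.

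*Wnt3*, which acts through β-catenin in limb and hair follicle, had 3.93, 3.60, 3.88, 3.80 and 3.88 in skin and 2.67 to 4.775 (median 3.09) in tumors. Its probeset has a mean at percentile 7.1 of all probesets, so its level is near the bottom of the array's scale, and whether it was above background is not given in the table. The difference of -0.59 ± 0.22 (SE, limma adjusted p = 0.041) was lost in 14 of 20 fits without 1 array, and the gene does not enter the fit without the dimmest genes. In UDS against skin it was -0.83 ± 0.24 (adjusted p = 0.0104), and all 5 UDS tumors lay below all skin samples. The PD tumor at 4.775 stood above every other sample.

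*Wnt7b*, an epithelial ligand of β-catenin signaling in lung, kidney and hair follicle, had 8.51, 8.42, 8.29, 8.30 and 8.68 in skin and 6.31 to 9.63 (median 7.33) in tumors. The spindle tumors had 9.63 and 8.43 and the undifferentiated tumors 7.23, 7.06 and 7.47, so that within UDS the subtypes did not overlap. Groups of 2 and 3 samples can part by chance, and the share of all genes that do so was not counted. The difference of tumors from skin was -0.81 ± 0.36 (SE, limma adjusted p = 0.0869), and it was called without the Trp53ΔEC spindle tumor (-0.95, adjusted p = 0.0116) and with RbΔEC; Trp53ΔEC tumors only (-1.04, adjusted p = 0.0229), and by the methods' t-test (adjusted p = 0.00726). Mixed tumors, with 8.22, 7.23, 7.24 and 6.31, were lower than skin (-1.19, adjusted p = 0.0423), a call lost in 8 of the 20 fits without 1 array and with the median of both probesets (-0.68, adjusted p = 0.215).

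*Wnt5b*, the close relative of *Wnt5a*, had its highest mean in mixed tumors, at 5.05, 6.13, 6.43 and 6.58, against 5.77, 5.43, 4.90, 5.504 and 5.45 in skin. PD tumors ran from 4.70 to 5.5 (median 5.15) and UDS tumors from 4.93 to 5.60. In 3 of the 4 mixed tumors the value lay above every sample of the other classes. Mixed tumors were higher than PD by 0.93 ± 0.25 (SE, limma adjusted p = 0.0103) and higher than UDS by 0.86 ± 0.26 (adjusted p = 0.0254), the latter lost in 5 of 20 fits without 1 array. Mixed minus skin, at 0.64, was not called (adjusted p = 0.0533), and on the second probeset skin had a mean of 5.95 and mixed tumors 5.89. Of the dermal papilla markers 5 of 9 were higher in mixed than in PD tumors, and 3 of 9 were higher and 1 lower than in UDS. In the mixed tumors, in the order of the *Wnt5b* values above, their means were 6.40, 5.72, 8.15 and 8.51, beside 6.15 to 6.63 in skin. Not every mixed tumor with high *Wnt5b* was thus high in these markers, and their part was not tested. *Wnt10b*, a signal of the hair placode, and *Wnt16*, a ligand known from bone, varied little. *Wnt10b* ran from 5.34 to 6.26 and *Wnt16* from 4.67 to 5.93 over all 20 arrays, and neither was called in any comparison.

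On the brightest probesets, each class was taken against the shared skin samples. PD tumors had 2 of the 10 ligands higher, *Wnt4* and *Wnt10a* (19.2% of all genes), and 1 lower, *Wnt2* (19.6%). For these 2 ligands PD tumors lay wholly above skin, as for 14.3% of genes. Mixed tumors had 0 higher (21.9%) and 5 lower, *Wnt2*, *Wnt3*, *Wnt4*, *Wnt7b* and *Wnt10a* (21.5%), of which *Wnt3* was lost in 7 of 20 fits without 1 array. UDS tumors had 1 higher, *Wnt5a* (22.0%), and 3 lower, *Wnt2*, *Wnt3* and *Wnt4* (20.2%). Against PD, mixed tumors had 1 higher, *Wnt5b* (13.5%), and 2 lower, *Wnt4* at -2.58 and *Wnt10a* at -3.39 (11.9%, limma adjusted p = 9.09e-06 and 1.4e-05). Against UDS, mixed tumors had 3 higher, *Wnt4*, *Wnt5b* and *Wnt6* (9.15%), and 0 lower (10.2%). The *Wnt6* call (0.785, limma adjusted p = 0.0397) was lost in 6 of 20 fits without 1 array. It was also lost with the median of both probesets (adjusted p = 0.13) and with centred arrays (adjusted p = 0.0528). Large parts of the array changed in these comparisons, and the counts of the ligands are to be read against those shares.

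**Figure D3:**
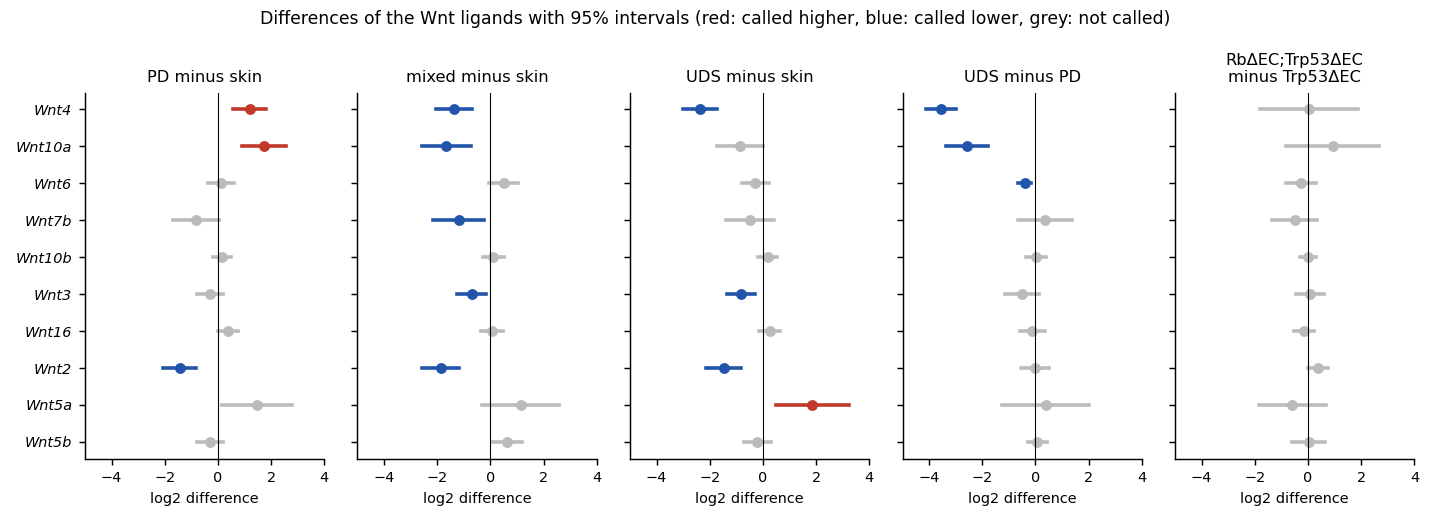
Log2 differences of the 10 ligands (points) with 95% intervals (bars) for PD, mixed and UDS tumors minus skin, UDS minus PD tumors, and RbΔEC; Trp53ΔEC minus Trp53ΔEC tumors, with calls at adjusted p under 0.05 in color. *Wnt4* and *Wnt10a* turn from higher in PD to lower in mixed tumors, *Wnt2* is lower in all 3 classes, and no ligand is called between genotypes.

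The other probesets put limits on 3 of the ligands. The second *Wnt6* probeset, whose name ends in _x_at, had 5.33 to 7.40 in skin and 4.23 to 4.61 in PD, 4.01 to 5.22 in mixed and 4.12 to 4.91 in UDS tumors, so every tumor was below every skin sample. It differed by -2.03 ± 0.26 between tumors and skin (SE, limma adjusted p over probesets = 5.58e-06), where the brighter probeset gave 0.09 ± 0.23 and the median of both -0.97 (adjusted p over genes = 0.000992). The second *Wnt5b* probeset, also of the _x_at kind, gave -1.02 ± 0.34 (adjusted p = 0.0244), against -0.02 ± 0.26. By class, the second *Wnt6* probeset was lower than skin in PD, mixed and UDS tumors (limma adjusted p over probesets = 3.86e-05, 0.000469 and 4.57e-05). The second *Wnt5b* probeset was lower in PD (-1.44) and UDS (-1.28) tumors (adjusted p = 0.000361 and 0.00131), and not called in mixed tumors. The probesets of *Wnt7b* had opposite signs, -0.81 ± 0.36 for the brighter and 0.35 ± 0.38 for the other. The suffix _x_at marks probesets with probes that can also match other transcripts, and the single *Wnt3* probeset carries it as well. Which probeset reports the gene was not tested, and the levels of *Wnt6*, *Wnt5b* and *Wnt7b* in tumors relative to skin are therefore uncertain.

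**Figure D4:**
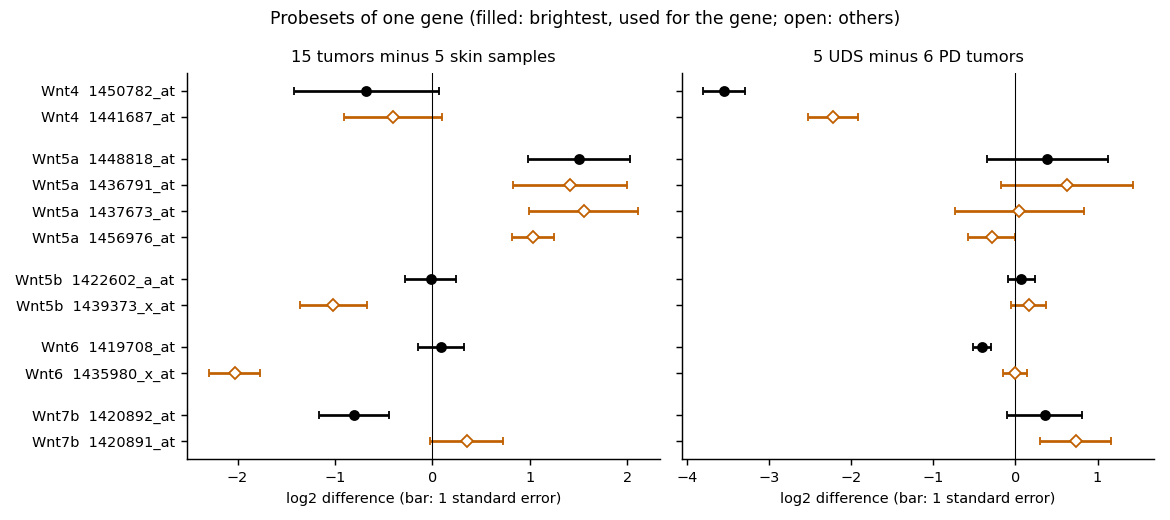
Log2 difference with 1 standard error for every probeset of the 5 ligands that have more than 1, for tumors minus skin (left) and UDS minus PD (right), with filled points for the probeset used. The *Wnt4* probesets fall together by grade and the 4 *Wnt5a* probesets all lie above 0 for tumors minus skin, while those of *Wnt6*, *Wnt5b* and *Wnt7b* part between tumors and skin.

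Between genotypes no ligand was called. The targeted *Rb1* had 8.94 to 9.26 in skin and 7.85 to 8.84 in Trp53ΔEC tumors. In the tumors labelled RbΔEC; Trp53ΔEC it was 6.88 to 7.53 in the 4 PD tumors and 6.55 in the mixed tumor, below every Trp53ΔEC tumor, but 8.02 to 8.14 in the 3 UDS tumors, above the Trp53ΔEC UDS tumors at 7.86 and 7.93. Whether the *Rb1* probeset lies in the deleted part could not be told, so it is no firm check of the labels, and *Trp53* was not analysed here. Of the 10 ligands 0 passed an adjusted p under 0.1, the threshold of the study's methods, against 0.0550% of all genes (10 genes), and 0 had an unadjusted p under 0.05 in limma or in the methods' t-test. Differences (RbΔEC; Trp53ΔEC minus Trp53ΔEC) ran from -0.59 for *Wnt5a* to 0.93 for *Wnt10a*. *Wnt2* was nearest, with 4.60 to 5.76 against 4.48 to 4.93, a difference of 0.38 (95% interval -0.002 to 0.76, limma adjusted p = 0.941). *Wnt4* differed by 0.05 with an interval of -1.79 to 1.90, which narrowed to -1.06 to 0.12 around -0.47 with histology in the fit. *Wnt10a* went from 0.93 (interval -0.83 to 2.68) to 0.14 (interval -0.76 to 1.05). Among PD tumors alone, where *Rb1* did differ, *Wnt4* gave -0.43 and *Wnt10a* 0.73 (limma adjusted p = 0.84 and 0.781, n = 4 and 2). Without histology in the fit the intervals of *Wnt4*, *Wnt10a*, *Wnt5a* (-1.84 to 0.67) and *Wnt7b* (-1.35 to 0.34) reached past 1 log2 unit in at least 1 direction. The interaction of grade and genotype called 0 genes with limma, 1283 genes had an unadjusted p under 0.05, and the ligands had 0 of them (lowest adjusted p = 0.716). No other tool was run for it.

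Outside the list, *Sdcbp2* and *Als2cl* had the pattern most like *Wnt4*, with a root mean square difference over the 20 arrays of 0.60 and 0.62 between centred log2 values, where a flat gene would have 1.46. *Fam83f* and *Mst1r*, the latter a receptor kinase of epithelia, were the nearest to *Wnt10a* (0.60 and 0.66, a flat gene 1.42). *Stra6*, a retinol transporter, and *Rras2*, a small GTPase, were the nearest to *Wnt5a* (0.71 and 0.73, a flat gene 1.21). The other ligands varied too little (SD under 1) to be matched.

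The genes that act on the ligands were read from lists of the pathway, whose counts stand beside the same shares of all genes, 17.7% higher and 18.0% lower in tumors against skin, and 12.7% higher and 9.90% lower in UDS against PD. Of the 9 other Wnt ligands 2 were lower in tumors than in skin, *Wnt3a* (-0.63) and *Wnt8a* (-0.26), and 1 was lower in UDS than in PD, *Wnt11* (-0.89). In the handling of the ligand, *Porcn*, which encodes Porcupine, was lower in UDS than in PD, at -3.14 ± 0.33 (SE, limma adjusted p = 4.7e-05) and higher in PD than in skin by 2.81 ± 0.32 (adjusted p = 1.84e-06), with groups that did not overlap in either case. *Wls*, which encodes Wntless, was higher in UDS than in PD by 1.60 ± 0.17 (adjusted p = 5.68e-05), and *Notum*, which removes the lipid, was not called. The mean log2 level of *Porcn* was 6.29 in skin, 9.10 in PD, 7.70 in mixed and 5.96 in UDS tumors.

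Of 10 Frizzled receptors 0 were higher and 2 lower in tumors, *Fzd4* at -2.21 (limma adjusted p = 2.64e-09) and *Fzd1* at -0.82. By grade 3 were higher and 2 lower in UDS, led by *Fzd6*, a polarity receptor of skin (-2.88, adjusted p = 0.00016), and *Fzd2* (1.41, adjusted p = 0.00128). Of 6 co-receptors and other receptors 2 were higher and 2 lower in tumors, and the higher ones were *Ror2* (1.39, adjusted p = 0.0413) and *Ptk7* (1.10, adjusted p = 0.0129). By grade *Ror2*, a receptor of *Wnt5a*, was 2.21 ± 0.24 higher in UDS (adjusted p = 6.45e-05, no overlap), with means of 6.02 in skin, 6.08 in PD and 8.30 in UDS, and *Ptk7* was lower (-1.01). These *Ror2* means leave out the mixed tumors. PD tumors lay near skin, and the difference of 1.39 over all tumors is more than UDS tumors alone would give. The mixed tumors must therefore also have averaged above skin, so the rise was not particular to UDS. The mean of all 6 receptors of this list was highest in mixed tumors, at 8.27, beside 7.53 in skin, 7.51 in PD and 7.60 in UDS. For *Wnt5a* itself UDS minus PD was 0.39 (95% interval -1.24 to 2.02) and not called. Of 9 genes for R-spondins, their receptors and ligases, 0 were higher and 3 lower in tumors, with *Rspo1* at -2.67 (adjusted p = 7.63e-05) and *Rspo3* at -1.51. By grade 1 was higher and 2 lower, *Lgr4* (-2.09) and *Rnf43* (-1.14).

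Among secreted antagonists 0 of 10 were higher and 2 lower in tumors, *Sfrp4* (-1.88, limma adjusted p = 7.36e-09) and *Sfrp1* (-1.74). In UDS against PD 1 was higher and 2 lower: *Dkk2*, which blocks Lrp5 and Lrp6, rose by 5.90 ± 0.37 (adjusted p = 1.25e-06) from a mean of 5.001 to 10.90, and *Wif1*, which binds the ligand itself, fell by 2.83 (adjusted p = 0.00133). In the destruction complex and Dishevelled 3 of 10 genes were higher and 1 lower in tumors, where *Axin2*, a scaffold and general target of the pathway, was -1.68 (adjusted p = 0.000915) and *Dvl2* 0.87. By grade 1 was higher, *Dvl2* (0.92), and 2 lower, with *Dvl1* at -0.99. Of 7 TCF/LEF factors and co-factors measured 1 was higher, *Bcl9* (0.82), and 2 lower in tumors, with *Bcl9l* at -0.87, and 2 were higher in UDS, *Tcf7l1* (0.67) and *Bcl9* (0.63). Of 11 β-catenin targets 2 were higher and 4 lower in tumors, the largest change being in *Tnfrsf19* (-3.65, adjusted p = 0.00121), and by grade *Ccnd1*, which encodes cyclin D1, was higher (1.53) and *Tnfrsf19* lower (-2.56). Of 11 polarity genes 1 was higher and 3 lower in tumors, with *Rhou* (-1.39) and *Prickle2* (-1.24), and 0 were higher and 4 lower in UDS, led by the cadherins *Celsr1* (-3.69) and *Celsr2* (-3.37). Between genotypes 0 genes of these lists were called.

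**Figure D5:**
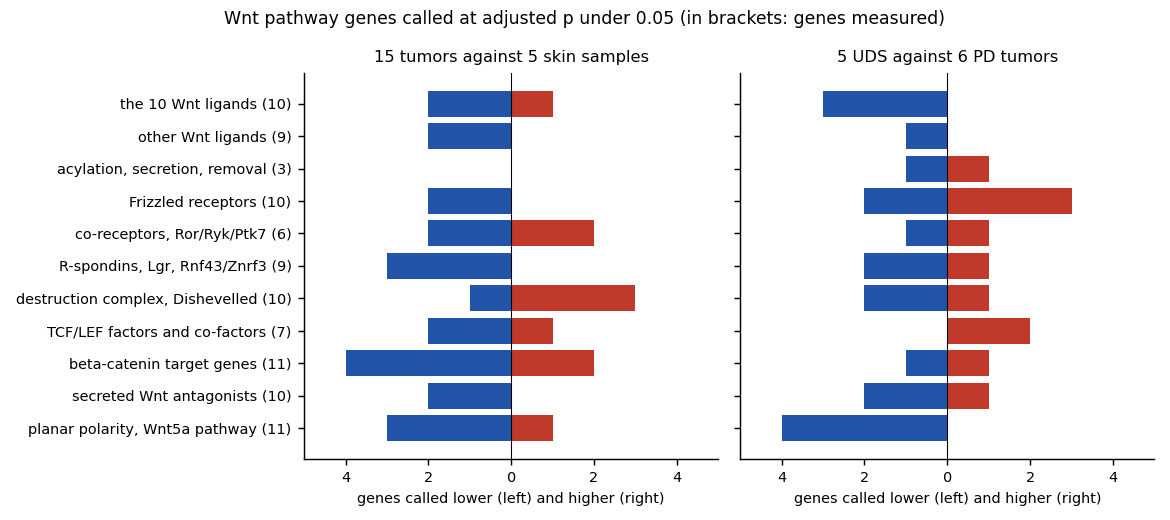
Number of genes called lower (left of 0) and higher (right of 0) at adjusted p under 0.05 in each Wnt pathway list, for tumors against skin and for UDS against PD tumors, with the number measured in brackets. The 10 ligands have 2 lower and 1 higher in tumors and 3 lower by grade, and the receptors have calls in both directions by grade.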

How the data were processed

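Per the labels, total RNA of 20 samples was hybridized to Affymetrix MOE430 2.0 arrays, 1 per sample. The deposited values are log2 values that the authors made by RMA, as the submitters' processing notes say, and the version used is not stated in these sources. They ran from 2.337 to 14.718. RMA sets the arrays to a common distribution, so a change shared by most genes would not be seen, and it gives no call of detection. No array date or batch was given, and the number of arrays limits the precision.

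The 64 control probesets were left out. GEO's platform annotation gave 1 gene for 34945 of 45037 probesets, several for 932 and none for 9160, and 204 single-gene probesets had a gene ID that is not in the RefSeq table used here. The brightest probeset was kept for each of 18193 genes. Groups came from the genotype and histology of the labels. The labels do not say whether tumors came from separate mice. The p-values measure only how these samples spread, part of which may be technical. They treat each sample as independent, which tumors of a shared mouse would not be. Fits used limma 3.58.1 (lmFit, eBayes, two-sided) in R 4.3.3 with Benjamini-Hochberg adjustment over all genes: tumors against skin, UDS against PD, the genotypes (also at 0.1), a fit of 4 histology groups, and the interaction. The threshold for a call was 0.05, adjusted. Scripts were tested on simulated data. Replicate numbers were not taken as pairs. In deviations from the genotype means, same-numbered tumors correlated from -0.478 to 0.64 over 7 pairs. Histology was not taken out of these deviations. The highest values came from the pairs of like histology, number 1 (both spindle, 0.628) and number 6 (both PD, 0.64). The correlations therefore cannot show whether the numbers mark pairs.

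All 10 ligands were named. Of each pathway list the counts were given with up to 2 called genes of largest change in the grade comparison and in tumors against skin, and *Notum* and further values of *Porcn* and *Ror2* were added after their values were seen. Likeness was taken for ligands with an SD of at least 1 over the arrays. The ligands and lists were chosen with earlier results of these data known. Alternatives were the median of the probesets, centring of arrays, a filter on dim genes (mean of at least 5.018, 13644 genes left), trend and robust eBayes, the methods' t-test with unequal variances, leaving out each array, a replicate block, and fits within genotype or histology. Leaving out tumors in the fit of 4 groups, and all alternatives for mixed against other tumors, were added after seeing the data. Sequences were read from RefSeq promoters of GRCm38.p6, and figures were drawn with matplotlib 3.10.9 in Python 3.11.15.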

Additional observations from a re-analysis of the deposited data

Results flagged for a closer look

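In 60 sets of values (10 ligands in 6 groups) 7 had a sample far from the others by Dixon's test, where chance flags about 1 in 20. Among PD tumors, *Wnt2* was 5.76 in RbΔEC; Trp53ΔEC tumor 8 beside 4.72 to 5.10 in the others, and *Wnt3* was 4.775 in RbΔEC; Trp53ΔEC tumor 2 beside 2.99 to 3.58. The latter value also stood apart among the 8 RbΔEC; Trp53ΔEC tumors. Among UDS tumors, *Wnt4* was 5.495 in RbΔEC; Trp53ΔEC tumor 5 (undifferentiated) beside 6.23 to 6.34 in the others. *Wnt5b* was 6.58 in RbΔEC; Trp53ΔEC tumor 4 (mixed) beside 4.93 to 5.60 in the other tumors of that genotype. *Wnt7b* was 9.63 in Trp53ΔEC tumor 1 (spindle) beside 7.23 to 8.22 in the other Trp53ΔEC tumors. *Wnt10b* was 6.08 in Trp53ΔEC tumor 5 beside 5.70 to 5.76 in the other mixed tumors.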

How the results depend on the processing

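Of 1355 results under alternatives 1184 were taken as the same as in the main fit. For a fold change this meant the same direction and the same side of the threshold. For a count of called ligands it meant an equal or similar count, so single ligands could still cross the threshold. The sign changed for 0 of the ligands that were called, and for others that were not called in the report (lowest adjusted p there 0.649). Of these, *Wnt6* was called lower in tumors with median probesets (-0.97, adjusted p = 0.000992). *Wnt2*, called lower in tumors, and *Wnt4* and *Wnt10a*, called by grade, kept the call without each array in turn.

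In tumors against skin the count of lower ligands was 1 with the dimmest genes left out and 1 with the replicate block (*Wnt3* adjusted p = 0.0866), and 1 to 2 without 1 array. The count of higher ligands was 0 to 1 without 1 array and 0 with RbΔEC; Trp53ΔEC tumors only. *Wnt6* was -0.009 with centred arrays and -0.038 with RbΔEC; Trp53ΔEC tumors only, where *Wnt10a* was 0.39. Without 1 array, *Wnt5b* ran from -0.145 to 0.071, *Wnt6* from -0.004 to 0.135 and *Wnt10a* from -0.23 to 0.14. By grade, without 1 array, *Wnt2* ran from -0.21 to 0.11, *Wnt5a* from -0.077 to 0.81, *Wnt5b* from -0.034 to 0.14, *Wnt7b* from -0.058 to 0.58 and *Wnt10b* from -0.086 to 0.098. With mixed tumors added to UDS, *Wnt10b* was -0.009. With RbΔEC; Trp53ΔEC tumors only, *Wnt2* was 0.04 and *Wnt5b* -0.11, and with Trp53ΔEC tumors only, 1 ligand was lower, *Wnt10b* was -0.40 and *Wnt16* 0.052. Between genotypes *Wnt4* was -0.09 with the replicate block, -0.47 with histology in the fit, -0.43 among PD tumors, and -0.26 to 0.43 without 1 array.

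Against skin, with median probesets 3 ligands were lower in PD and 5 in UDS. Without 1 array, PD had 2 to 4 higher and 1 to 2 lower, mixed 0 to 1 higher and 3 to 5 lower, and UDS 0 to 1 higher. Mixed tumors had 1 to 2 ligands higher than PD, and 0 to 3 higher and 0 to 1 lower than UDS, where the count higher was 1 with median probesets and 1 with centred arrays. The causes were not tested. The replicate block was fitted only for tumors against skin, UDS against PD and the genotypes, where it changed no call other than *Wnt3*. In the deviations from genotype means, 2 of 7 Trp53ΔEC tumors correlated best with their own number. Signal near the bottom of the scale limits *Wnt3*.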
